A study of Mus musculus with 6 samples.

Results

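The genes described here are 10 regulators of the mitochondrial apoptosis pathway that belong to the BCL2 family. They are the pore formers Bax and Bak1, the anti-apoptotic members Bcl2, Bcl2l1, Bcl2l2 and Mcl1, and the BH3-only members Bcl2l11, Bbc3, Pmaip1 and Bid. The set is defined by gene symbol. All 10 were found among the 55471 gene identifiers of the count table, and all 10 were among the 16562 genes that passed the low-count filter and were tested.

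BCL2 family proteins decide whether the outer mitochondrial membrane stays intact. BAX and BAK form pores in it that release cytochrome c, the anti-apoptotic proteins hold them in check, and BH3-only proteins, many of them controlled at the level of transcription, relieve that check or activate the pore formers directly. In neurons BAX is the main pore former. OPA1, a GTPase of the inner membrane, keeps the cristae closed in which most cytochrome c is stored.

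RNA was sequenced from primary neurons of the cerebral cortex of CD1 mouse embryos, taken at about embryonic day 15 and grown until day 11 in culture. All cultures received 2 uM cytosine arabinoside (Ara-C), which stops cell division, and lentivirus on day 6. The 3 shControl libraries (genotype given as WT) carried a control short hairpin RNA, and the 3 shOpa1 libraries (genotype given as Opa1 knock-down) one against Opa1. The series set out to describe gene expression under mitochondrial stress, and the comparison asks how these 10 transcripts differ once Opa1 is depleted. The labels call the libraries biological replicates and number them 1 to 3 in each group. They give neither the hairpin sequences, nor the promoter that drives them, nor the share of cells that took up virus, and an untransduced group was not analysed here.

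Levels are given as CPM, counts scaled to a common library size. Library totals lay between 24676709 and 32961580 counts. The Opa1 transcript was 22.3-fold lower in shOpa1 (log2 fold change -4.48, adjusted p = 2.09e-06 in edgeR). Adjusted p-values here come from edgeR's quasi-likelihood fit over all tested genes, corrected after Benjamini and Hochberg. On the second principal component, with 26.9% of the variance, the libraries with the number 3 lay away from all others, so values within pairs 1, 2 and 3 are given for each member. Summed over 9 neuronal markers, the level was 7360 to 7820 CPM in shControl and 5090 to 5430 CPM in shOpa1, where 5 markers were lower (8 with the replicate number as a block) and 1, Gad2, was higher. The 7 astrocyte markers summed to 39 to 127 CPM and 24.0 to 68.7 CPM. Of these, 2 were lower and 1, Gfap, was higher, and the block raised the lower ones to 6. Slc1a3, the most abundant of them in shControl, differed by -1.30, -1.33 and -1.68 on the log2 scale within pairs 1, 2 and 3. The other sums in shControl and shOpa1 were 47.1 to 75.5 and 38.4 to 54.7 CPM for 7 oligodendrocyte markers, 5.53 to 8.01 and 3.27 to 4.71 CPM for 7 microglial markers, and 9.04 to 20.7 and 5.1 to 50.6 CPM for 5 fibroblast markers. They were 6.91 to 8.31 and 4.64 to 6.67 CPM for 6 endothelial and pericyte markers, and 23.3 to 30.9 and 29.4 to 33.5 CPM for 5 markers of dividing cells. Most of the last sum was Pcna, which was higher (means of 22.7 and 30.2 CPM). Mki67, Top2a, Cdk1 and Ccnb1 had few counts and lower means in shOpa1, and each was highest in shControl replicate 3. Only 1 of the 7 microglial markers, Aif1, was tested, and it made up most of their sum (means of 5.98 CPM in shControl and 2.98 CPM in shOpa1). Those below the low-count filter went both ways. Csf1r had 4 to 5 counts in shControl and 7 to 15 in shOpa1, and Itgam 1 to 2 counts and 0. No marker was at 0 in all 6 libraries. The part of these shifts in the results below was not tested, and fewer cells of a type cannot be told apart from less RNA per cell.

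Of the 10 members, 4 rose in shOpa1 neurons: the pore former Bax, the anti-apoptotic gene Bcl2, and the BH3-only genes Bcl2l11 and Bbc3. Each rose by 1.54 to 1.73-fold. These 4 stand beside a background of 18.9% of all tested genes that were higher in edgeR at an adjusted p under 0.05. None of the 10 fell, against 20.0% of all tested genes that were lower, and 0 members were lower at an unadjusted p under 0.05 in edgeR, in DESeq2 at its adjusted threshold, or in limma-voom. With the replicate number as a block, which called 28.8% of all tested genes higher, the same 4 members were called, and 0 members were lower, against 30.7% of all tested genes. The median log2 fold change of the 10 was 0.24, beside -0.01 over all tested genes. By role it was 0.33 for the 2 pore formers, 0.11 for the 4 anti-apoptotic members and 0.54 for the 4 BH3-only members, with 1, 1 and 2 of them called. In 5 members, the 4 above and Mcl1, all 3 shOpa1 libraries lay above all 3 shControl libraries, as in 25.8% of all tested genes.

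**Figure D1:**
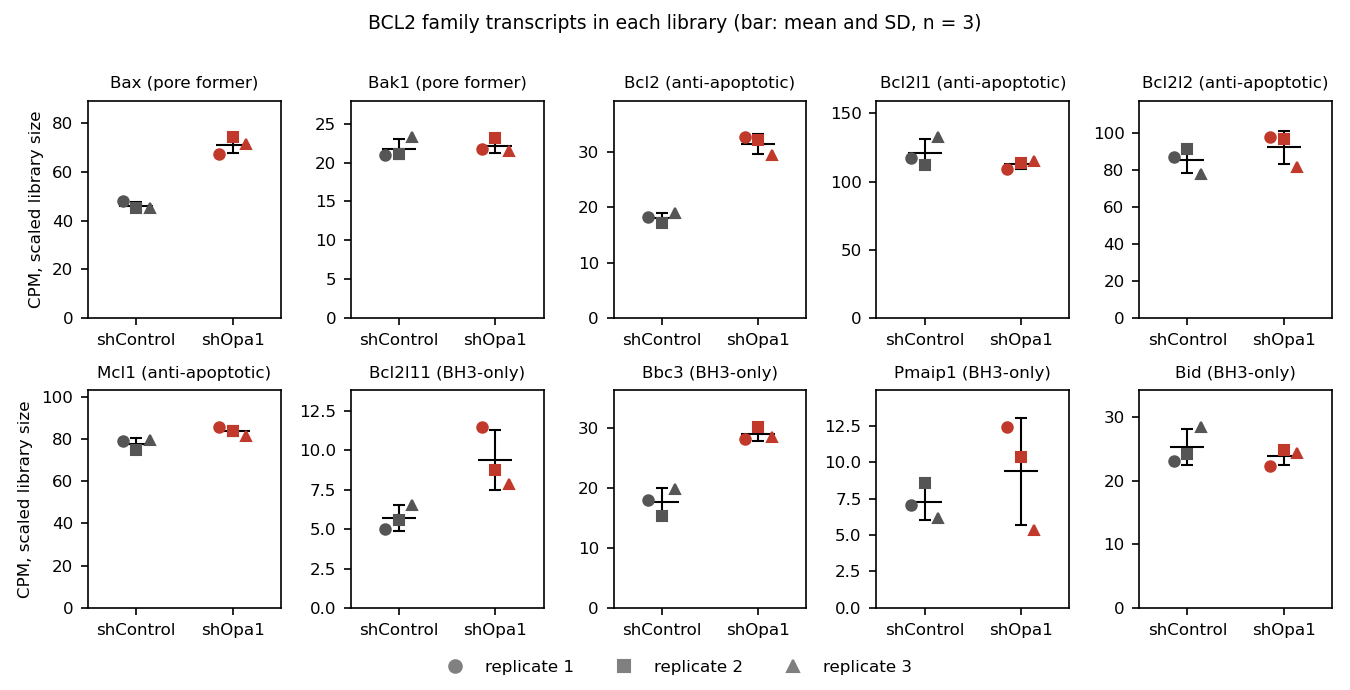
Level of each of the 10 BCL2 family transcripts in each library, in CPM with scaled library sizes (vertical axes starting at 0), for shControl (grey) and shOpa1 (red). Marker shapes give the replicate number and bars the mean and SD of 3 libraries. The groups are clearly separated for Bax, Bcl2 and Bbc3, lie close together for Bcl2l11 and Mcl1, and overlap for the other 5.

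The letters around the start sites of these 4 genes, picked because they rose, are shown with each of them. They come from the RefSeq promoter table for GRCm38.p6, which spans 250 bases before to 50 after a start. Each is written 5′ to 3′ along the gene, and positions count from the start base as 0. Capitals mark matches on either strand to 4 short motifs of factors known to act on BCL2 family genes: the forkhead site GTAAACA, the C/EBP-ATF composite site TGATGNAA, the E-box CACGTG and the CRE half-site TGACGT. The GC box GGGCGG was also searched and is left in lower case. None of these motifs contains another. A match is a description of the letters and was not tied to binding in these cells.

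Bax rose and Bak1 did not pass the test. Bax encodes the pore former that waits in the cytosol and moves to mitochondria when apoptosis begins. It is found at 45461697 to 45466898 of chromosome 7, minus strand (ENSMUSG00000003873, GRCm38). Its levels were 48.0, 45.3 and 45.1 CPM in shControl replicates 1 to 3 and 67.5, 74.4 and 71.3 CPM in shOpa1. The lowest shOpa1 library was well above the highest shControl library, and libraries of a group lay close together. The means were 46.1 ± 1.61 and 71.1 ± 3.42 CPM (SD, n = 3), a log2 fold change of 0.62 (standard error, SE, 0.066, adjusted p = 0.000499 in edgeR). Within pairs 1, 2 and 3 the difference was 0.49, 0.71 and 0.66 on the log2 scale. Of the exon bases of Bax, 12.2% are shared with the predicted gene Gm45808 on the same strand. The window around its start, chr7:45466849-45467148 on the minus strand, held 2 E-boxes, at base -9 and base 35 from the start, and 3 GC boxes.
Bax: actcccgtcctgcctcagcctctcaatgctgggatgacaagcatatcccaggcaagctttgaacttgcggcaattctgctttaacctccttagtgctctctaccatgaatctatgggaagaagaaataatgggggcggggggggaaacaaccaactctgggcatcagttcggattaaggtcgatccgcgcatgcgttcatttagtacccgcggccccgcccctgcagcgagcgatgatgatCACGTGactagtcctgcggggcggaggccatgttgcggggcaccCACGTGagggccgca

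Bak1 (ENSMUSG00000057789, chromosome 17 from 27019810 to 27029009, minus strand) encodes the pore former that sits in the outer membrane at all times. It measured 20.9, 21.04 and 23.3 CPM in shControl and 21.8, 23.2 and 21.5 CPM in shOpa1. The groups overlapped, and no library stood out. The log2 fold change was 0.03 (SE 0.0819, edgeR, adjusted p = 0.824), and the pairs gave 0.06, 0.14 and -0.11. Its sign turned when shControl replicate 1, shControl replicate 2 or shOpa1 replicate 2 was left out. Of its exon bases, 25.5% lie opposite Ggnbp1 on the other strand, and the stated counting command sets no strand.

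Among the anti-apoptotic members, only Bcl2 passed the test. Bcl2, the founding member of the family, encodes a guardian of the outer membrane that is prominent in developing neurons. It is found at 106538178 to 106714274 of chromosome 1, minus strand (ENSMUSG00000057329). Its levels were 18.2, 17.2 and 19.0 CPM in shControl and 32.7, 32.2 and 29.4 CPM in shOpa1. All shOpa1 libraries were above all shControl libraries by a wide gap. The means were 18.1 ± 0.904 and 31.4 ± 1.76 CPM (SD, n = 3), and the log2 fold change of 0.79, standard error 0.0813, was the largest of the 10 (edgeR, adjusted p = 0.000438). The pairs gave 0.82, 0.89 and 0.62. The window around its start, chr1:106714241-106714540 on the minus strand, held 1 CRE half-site, at base -107, and 7 GC boxes. Of its exon bases, 6.09% lie opposite D630008O14Rik.
Bcl2: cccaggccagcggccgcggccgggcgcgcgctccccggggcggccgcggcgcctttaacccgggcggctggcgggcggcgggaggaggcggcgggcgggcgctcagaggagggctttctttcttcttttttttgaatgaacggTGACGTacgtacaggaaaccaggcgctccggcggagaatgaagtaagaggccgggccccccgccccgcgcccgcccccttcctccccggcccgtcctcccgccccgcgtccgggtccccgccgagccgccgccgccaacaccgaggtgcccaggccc

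Bcl2l1 encodes BCL-XL, the main anti-apoptotic protein of mature neurons (ENSMUSG00000007659, chromosome 2 from 152780668 to 152831728, minus strand). Its levels were 117, 112 and 133 CPM in shControl and 109, 114 and 115 CPM in shOpa1. Its groups overlapped, with shControl replicate 3 the highest. The log2 fold change was -0.10 (SE 0.0755, edgeR, adjusted p = 0.345), and its sign turned to 0.02 when library totals alone set the scale. The pairs gave -0.10, 0.02 and -0.20.

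Bcl2l2 encodes BCL-W, a relative of BCL-XL that supports axons (ENSMUSG00000089682, chromosome 14 from 54883377 to 54888234, plus strand). It measured 87.2, 91.3 and 77.9 CPM in shControl and 98.0, 97.0 and 81.9 CPM in shOpa1. Replicate 3 was the lowest of both groups, and each shOpa1 library was above the shControl library of its number, by 0.17, 0.09 and 0.07 on the log2 scale. The log2 fold change was 0.11 (SE 0.0944, edgeR, adjusted p = 0.391). The blocked fit gave an adjusted p of 0.0701 in edgeR. Of its exon bases, 13.3% are shared with Gm20521 on the same strand.

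Mcl1 encodes a short-lived guardian on which neural progenitors depend (ENSMUSG00000038612, chromosome 3 from 95658788 to 95663176, plus strand). It measured 78.9, 74.7 and 79.5 CPM in shControl and 85.8, 83.8 and 81.5 CPM in shOpa1. Its groups did not overlap, but the gap between them was narrow, and the pairs differed by 0.12, 0.16 and 0.04. The log2 fold change was 0.11 (SE 0.0584, edgeR, adjusted p = 0.187). The blocked fit gave an adjusted p of 0.0844 in edgeR. With library totals alone as the scale it was 0.23 with an adjusted p of 0.0208 in edgeR.

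Of the BH3-only members, Bcl2l11 and Bbc3 rose. Bcl2l11 encodes BIM, which binds every anti-apoptotic member and is induced in neurons deprived of trophic factors. It is found at 128126038 to 128162547 of chromosome 2, plus strand (ENSMUSG00000027381). Its levels were 5.0, 5.6 and 6.6 CPM in shControl and 12, 8.8 and 7.9 CPM in shOpa1, from 119 to 177 counts and 258 to 357 counts. The groups did not overlap, but the shOpa1 libraries were far more spread around their mean than those of Bax or Bcl2, with replicate 1 the highest. The means were 5.71 ± 0.796 and 9.39 ± 1.89 CPM (SD, n = 3), a log2 fold change of 0.72 (SE 0.181, edgeR, adjusted p = 0.0177). The difference was 1.13 in pair 1, 0.61 in pair 2 and 0.25 in pair 3. The blocked fit gave an adjusted p of 0.00392 in edgeR. Without the block, Bcl2l11 missed the threshold when any 1 of 3 libraries was left out. The log2 fold change was 0.63 without shControl replicate 1, 0.69 without shControl replicate 2 and 0.54 without shOpa1 replicate 1. The edgeR adjusted p was 0.0666, 0.0672 and 0.0614. The window of the first of 2 listed starts, chr2:128125788-128126087 on the plus strand, held 1 forkhead site, at base -227, and 3 GC boxes.
Bcl2l11: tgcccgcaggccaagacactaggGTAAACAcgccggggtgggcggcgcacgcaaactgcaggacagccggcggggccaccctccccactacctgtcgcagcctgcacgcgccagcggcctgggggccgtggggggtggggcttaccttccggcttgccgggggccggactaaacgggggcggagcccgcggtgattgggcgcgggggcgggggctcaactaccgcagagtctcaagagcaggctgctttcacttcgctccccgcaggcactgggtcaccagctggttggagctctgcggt

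Bbc3 encodes PUMA, a BH3-only protein best known as a target of p53 that FOXO3 and CHOP can also induce. It is found at 16308393 to 16318205 of chromosome 7, plus strand (ENSMUSG00000002083). Its levels were 18.1, 15.4 and 19.9 CPM in shControl and 28.3, 30.3 and 28.5 CPM in shOpa1. All shOpa1 libraries were above all shControl libraries. The means were 17.8 ± 2.29 and 29.03 ± 1.12 CPM (SD, n = 3), a log2 fold change of 0.71 (SE 0.107, edgeR, adjusted p = 0.00219). The pairs gave 0.63, 0.96 and 0.51. Of 3 listed starts, the second, chr7:16310011-16310310 on the plus strand, held 1 forkhead site, at base -167 and read on the other strand, and 4 GC boxes. The third start held 1 E-box, at base -64.
Bbc3: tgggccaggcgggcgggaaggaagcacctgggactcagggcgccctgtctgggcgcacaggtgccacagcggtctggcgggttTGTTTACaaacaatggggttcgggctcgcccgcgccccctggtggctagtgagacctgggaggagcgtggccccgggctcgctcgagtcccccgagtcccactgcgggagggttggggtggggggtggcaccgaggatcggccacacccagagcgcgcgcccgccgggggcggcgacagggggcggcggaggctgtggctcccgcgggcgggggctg

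Matches of this kind were not rare. Over the 32851 promoter windows of 27025 genes in the table, the forkhead site was present in 3.65%, the composite site in 3.97%, the E-box in 7.15%, the CRE half-site in 7.51% and the GC box in 35.7%. Of the 14 windows listed for 9 of the members, 2 held the forkhead site, 2 the E-box, 1 the CRE half-site, 0 the composite site and 10 the GC box. The forkhead, E-box and CRE matches all fell in the 4 genes that rose, which hold 7 of the 14 windows. GC boxes were also found at Bcl2l2, Mcl1 and Bid. Pmaip1, which did not pass the test, had no listed window. Windows 2 and 3 of Bbc3 overlap, at 16310011 to 16310310 and 16310181 to 16310480. GC content was 57.3% at Bax and 71.0% to 78.0% at Bcl2, Bcl2l11 and Bbc3. It was 49.3% to 65.7% in the windows of the other members. Whether the split of these few matches is related to the rise was not tested.

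The other BH3-only genes did not pass the test. Bid encodes the link between death receptors and mitochondria (ENSMUSG00000004446, chromosome 6 from 120891930 to 120916853, minus strand). It measured 23.1, 24.2 and 28.6 CPM in shControl and 22.3, 24.8 and 24.5 CPM in shOpa1. The groups overlapped, with shControl replicate 3 the highest, and the pairs gave -0.05, 0.04 and -0.22. The log2 fold change was -0.08 (SE 0.101, edgeR, adjusted p = 0.551). Its sign turned to 0.04 with library totals alone as the scale, and it was 0.00026 in replicates 1 and 2 alone. Of its exon bases, 17.7% lie opposite Bcl2l13, another relative of the family.

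Pmaip1 encodes NOXA, a selective partner of MCL1 (ENSMUSG00000024521, chromosome 18 from 66458533 to 66465565, plus strand). It measured 7.04, 8.60 and 6.19 CPM in shControl and 12.4, 10.3 and 5.32 CPM in shOpa1. Replicates 1 and 2 of shOpa1 were above every shControl library and replicate 3 was below every one. The log2 fold change was 0.36 (SE 0.305, edgeR, adjusted p = 0.388), and the pairs gave 0.78, 0.25 and -0.20. Without shOpa1 replicate 3 it was 0.64 with an adjusted p of 0.0228 in edgeR, and in replicates 1 and 2 alone 0.54 with an adjusted p of 0.0075. Among the members, Pmaip1 was the one whose pairs differed most.

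In replicates 1 and 2 alone, without the libraries that stood apart, the 4 members that rose had log2 fold changes of 0.61 for Bax, 0.88 for Bcl2, 0.94 for Bcl2l11 and 0.82 for Bbc3. All 4 passed the edgeR test there, as did Pmaip1. The values for Bcl2l11 and Bbc3 in pair 3 were the smallest of their 3 pairs, and so was that of Bcl2, whereas Bax was smallest in pair 1. In the authors' deposited table the log2 fold changes were 0.63 for Bax, 0.80 for Bcl2, 0.72 for Bcl2l11 and 0.72 for Bbc3, with adjusted p-values of 1.67e-15, 5e-14, 0.000778 and 1.54e-09. For the other 6 members the authors' deposited table gives adjusted p-values from 0.135 (Bcl2l2) to 0.834 (Bak1).

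**Figure D2:**
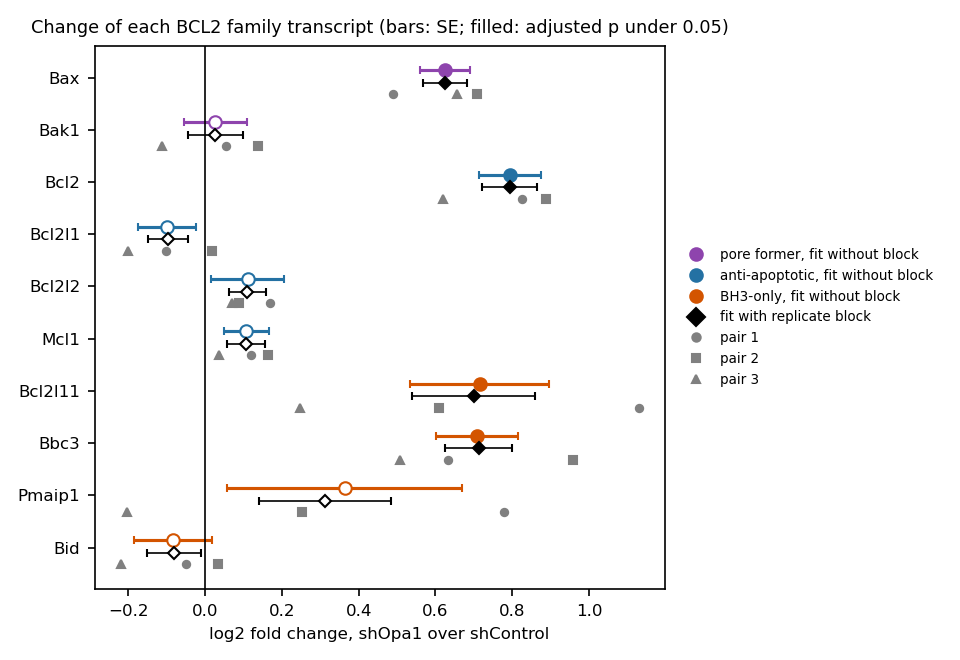
Log2 fold change of shOpa1 over shControl for each member (horizontal axis) with its standard error, from edgeR without the replicate block (circles, coloured by role) and with it (black diamonds), and the difference within each numbered pair (grey). Filled symbols have an adjusted p under 0.05. Bax, Bcl2, Bcl2l11 and Bbc3 are filled in both fits, and the pairs are widest apart for Pmaip1 and Bcl2l11.

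Levels of different genes were compared per length, as CPM per kb of exon in the count table. In shControl the order by mean was Bax at 29.3 ± 1.02, Bcl2l1 at 26.3 ± 2.31, Mcl1 at 22.7 ± 0.758 and Bcl2l2 at 19.2 ± 1.53 CPM per kb (SD, n = 3). Below them came Bak1 at 9.04 ± 0.554, Bbc3 at 8.37 ± 1.08 and Bid at 7.13 ± 0.807 CPM per kb. The lowest were Pmaip1 at 2.66 ± 0.446, Bcl2 at 1.98 ± 0.0987 and Bcl2l11 at 0.711 ± 0.0992 CPM per kb. The libraries of Bax and Bcl2l1 overlapped, as did those of Bak1 and Bbc3 and those of Bbc3 and Bid, and the other neighbours in this order did not. Among the anti-apoptotic members the one that rose, Bcl2, was therefore the lowest per length, below Bcl2l1, Mcl1 and Bcl2l2. The exon lengths of Bcl2 and Bcl2l11, at 9157 and 8029 bases, join all annotated transcripts, which lowers a level per length where shorter transcripts are in use.

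In shOpa1 Bax reached 45.1 ± 2.17 CPM per kb and no longer overlapped Bcl2l1, which was at 24.6 ± 0.704. Mcl1, at 24.5 ± 0.635, overlapped Bcl2l1. Bbc3, at 13.7 ± 0.526, came before Bak1, at 9.2 ± 0.375, without overlap. Bcl2, at 3.43 ± 0.192, and Pmaip1, at 3.43 ± 1.34, overlapped, and Bcl2l11 remained last at 1.17 ± 0.235 CPM per kb.

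**Figure D3:**
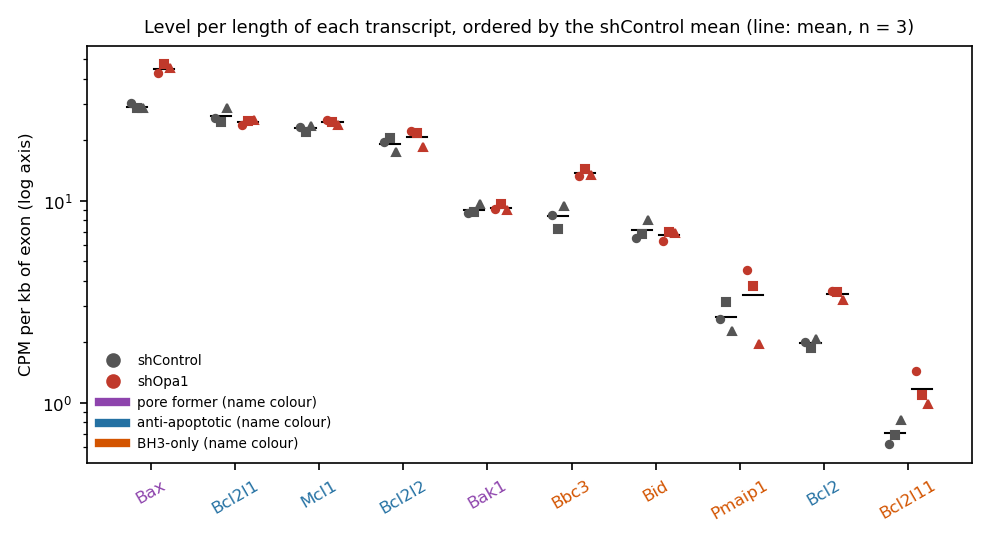
Level of each member per length (CPM per kb of exon, log axis) in each library, in the order of the shControl means. Grey is shControl, red is shOpa1, lines are means of 3 libraries, marker shapes give the replicate number and name colours give the role. Bax has the highest mean in both groups and Bcl2l11 the lowest, and in shControl the libraries of Bax and Bcl2l1 overlap.

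Summed by role, the pore formers measured 39.1, 37.5 and 38.3 CPM per kb in shControl and 51.9, 56.8 and 54.2 CPM per kb in shOpa1, a 1.42-fold higher mean. The BH3-only members summed to 18.2, 17.9 and 20.5 CPM per kb in shControl and 25.6, 26.1 and 23.2 in shOpa1, a 1.32-fold higher mean. The anti-apoptotic members summed to 70.1, 68.7 and 71.7 CPM per kb and 74.4, 74.6 and 70.6, a mean 1.04-fold higher. The pore former and BH3-only sums did not overlap between groups, and the anti-apoptotic sums did. Not every gene moved with its sum. Bax went from 29.3 to 45.1 CPM per kb, with Bak1 at 9.04 and 9.2. Bbc3 went from 8.37 to 13.7 CPM per kb, with Bid at 7.13 and 6.72. The sums hold the 10 members only and leave out other BH3-only genes such as Bmf and Hrk. These sums and the ratios below describe transcripts, and no test was made on them.

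The ratio of Bax to Bcl2, often used as a marker of apoptotic readiness, had a log2 value of 3.93, 3.94 and 3.79 in shControl and 3.59, 3.75 and 3.82 in shOpa1. Since both genes rose, this ratio overlapped between groups, with means of 3.89 and 3.72. The ratio of Bax to Bcl2l1 gave another picture, with log2 values of 0.25, 0.23 and -0.02 in shControl and 0.85, 0.93 and 0.85 in shOpa1. Which anti-apoptotic gene Bax was set against thus decided whether the groups were separate. Log2 ratios of Bbc3 to Mcl1 were -1.44, -1.60 and -1.31 in shControl and -0.92, -0.78 and -0.83 in shOpa1, without overlap. Those of Bcl2l11 to Bcl2l1 were -5.36, -5.14 and -5.15 and -4.05, -4.51 and -4.68, also without overlap. Those of Bak1 to Mcl1 overlapped, with means of -1.33 and -1.41. For the sums, the log2 ratio of pore formers to anti-apoptotic members went from a mean of -0.87 ± 0.0322 to -0.43 ± 0.0776, and that of BH3-only to anti-apoptotic members from -1.90 ± 0.0785 to -1.55 ± 0.0456 (SD, n = 3).

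**Figure D4:**
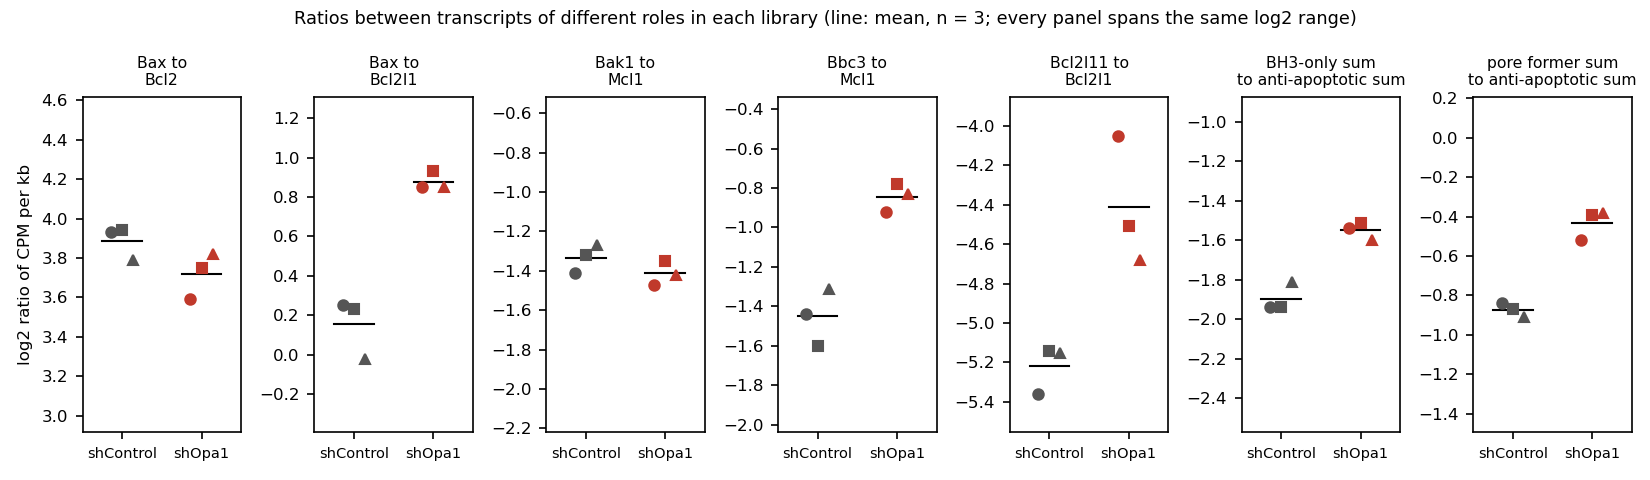
Log2 ratio of the per-length levels of transcripts with different roles in each library. Every panel spans the same log2 range, grey is shControl, red is shOpa1, lines are means of 3 libraries and marker shapes give the replicate number. The groups overlap for Bax to Bcl2 and Bak1 to Mcl1 and are separate in the other 5 panels.

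Among 12943 well-counted genes, those whose levels over the 6 libraries ran most like each member that rose were named by the distance between log2 profiles centred on their means. For Bax they were Abhd10, which encodes a mitochondrial hydrolase (distance 0.0325), and Polr2k, a small RNA polymerase subunit (0.0758). For Bcl2 they were the splicing factor gene U2surp (0.0358) and D17Wsu92e (0.0667). For Bbc3 they were Gm20604 (0.0596) and Rnf7, a subunit of ubiquitin ligases (0.0978). Bcl2l11 had no neighbour as close: the nearest were Scg2, a secretory granule protein gene (0.237), and the lipoxygenase gene Aloxe3 (0.247).

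The pathway around the 10 members was described by 6 lists of 69 other symbols (March5 also under its newer name Marchf5), 60 of which were tested. In these lists 14 genes rose and 10 fell, near the shares of all tested genes that were higher and lower, 18.9% and 20.0%. The blocked fit had 22 higher and 13 lower, beside 28.8% and 30.7% of all tested genes. Their median log2 fold change was 0.09, and that of all tested genes -0.01.

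Downstream of the pore, the genes of the apoptosome and the caspases that passed the test rose. Of 9 tested, 5 rose and 0 fell, beside 18.9% and 20.0% of all tested genes, with a median log2 fold change of 0.44. With the block 6 rose and 0 fell, beside 28.8% and 30.7% of all tested genes. At an unadjusted p under 0.05 in edgeR 0 were lower, and DESeq2 and limma-voom also called 0 lower, while replicates 1 and 2 alone gave 1. Apaf1, the scaffold that cytochrome c binds, measured 40.2, 38.7 and 42.8 CPM in shControl and 55.5, 52.6 and 56.9 CPM in shOpa1, a log2 fold change of 0.44 (edgeR, adjusted p = 0.00248). Every shOpa1 library was above every shControl library. Dffb, the nuclease that cuts DNA in dying cells, rose by 0.69, and Dffa, its inhibitor and chaperone, by 0.57. Cycs, cytochrome c itself, rose by 0.66 and was named after its values were seen. So was Casp6, with 15 to 38 counts per library and a log2 fold change of -0.77. It did not pass the test (edgeR, adjusted p = 0.119, and 0.0522 with the block).

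Of 8 tested inhibitors of apoptosis and proteins released from the intermembrane space, 2 rose and 2 fell, with a median of 0.00. Over all tested genes 18.9% were higher and 20.0% lower. Xiap, which blocks caspases directly, fell from 72.6 ± 6.61 to 55.9 ± 0.558 CPM (SD, n = 3), a log2 fold change of -0.38 (edgeR, adjusted p = 0.00798). Birc6, a giant ubiquitin ligase that restrains caspases, fell by 0.33. Birc2, encoding cIAP1, rose by 0.27, and Aifm1, an oxidoreductase released with cytochrome c, by 0.24. Birc2 and Aifm1 missed the threshold in 5 of the 6 fits that left out 1 library, with edgeR adjusted p-values up to 0.157 and 0.141. Aifm1 kept it only without shOpa1 replicate 3, and so did Birc2.

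Other BCL2 family genes included the steepest fall of these lists. Bmf, a BH3-only gene whose protein binds the dynein light chain, measured 5.87, 7.29 and 5.08 CPM in shControl and 1.26, 1.64 and 0.978 CPM in shOpa1. Every shOpa1 library was far below every shControl library, and the log2 fold change was -2.23 (SE 0.242, edgeR, adjusted p = 0.000562). Bmf thus went opposite to Bcl2l11 and Bbc3, which share its role. The mitophagy receptors Bnip3 and Bnip3l also went opposite ways: Bnip3 rose from 21.9 ± 3.51 to 36.7 ± 1.57 CPM and Bnip3l fell from 98.2 ± 9.99 to 55.5 ± 9.86 CPM (SD, n = 3). Their log2 fold changes were 0.75 and -0.82 (edgeR, adjusted p = 0.00295 and 0.00393). Of the exon bases of Bnip3, 22.3% lie opposite Gm45507. In all, 1 of 9 tested rose and 2 fell, and 2 and 3 with the block, where Hrk was also higher and Bok lower. Over all tested genes the shares were 18.9% and 20.0%, and 28.8% and 30.7% with the block.

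Among 12 tested outer-membrane channels and factors that bind or turn over BCL2 proteins, 2 rose and 2 fell, with a median of 0.13. The shares of all tested genes were 18.9% higher and 20.0% lower. With the block 7 rose and 2 fell, beside 28.8% and 30.7% of all tested genes. Vdac1, Huwe1, Fbxw7, March5 and Bag1 also passed there. The dynein light chain genes, whose products tether BMF and BIM, moved apart. Dynll2, which holds BMF, rose by 0.58 from 571.5 ± 16.8 to 855.5 ± 33.5 CPM, and Dynll1, which holds BIM, had a log2 fold change of -0.66, from 191 ± 13.7 to 120.5 ± 9.46 CPM (SD, n = 3, edgeR adjusted p = 0.000401 and 0.000963). The channel gene Vdac3 rose by 0.39. Usp9x, which stabilises MCL1, fell by 0.18, a change that missed the threshold in 9 of 17 alternatives.

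Of 13 tested transcription factors known to act on BCL2 family promoters, 4 rose and 2 fell, with a median of -0.09. Over all tested genes 18.9% were higher and 20.0% lower. Ddit3, which encodes CHOP, a stress factor that can induce Bbc3 and Bcl2l11 and repress Bcl2, measured 25.8, 28.8 and 25.1 CPM in shControl and 81.8, 82.8 and 77.5 CPM in shOpa1. It rose 3.03-fold (edgeR, adjusted p = 2.9e-05), and its groups were far apart. Of its exon bases, 10.9% are shared with a second Ddit3 entry on the same strand or lie opposite Gm4189 and Mars. The second entry was not used here. E2f1, a cell cycle factor that can act on BH3-only genes, measured 4.78, 4.41 and 5.15 CPM in shControl and 15.7, 15.4 and 15.0 CPM in shOpa1, a log2 fold change of 1.68 (adjusted p = 7.21e-05). Atf5 rose by 1.32 and Atf4, the central factor of the integrated stress response, by 0.93. The 2 that fell, Trp73 (-1.42) and Myc (-0.50), were named after their values were seen, as were Trp53 (0.17, edgeR adjusted p = 0.167) and Foxo3 (-0.17, adjusted p = 0.363), which did not pass the test.

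In the death receptor pathway 0 of 9 tested genes rose, beside 18.9% of all tested genes. Of the 9, 2 fell, near the 20.0% of all tested genes that were lower, and the median was -0.29. In all, 4 fell with the block, beside 30.7% of all tested genes, and Cflar and Ngfr also passed there. At an unadjusted p under 0.05 in edgeR 0 were higher, and DESeq2 and limma-voom also called 0 higher. Tnfrsf21, encoding the receptor DR6 that acts in axon pruning, fell from 133 ± 7.42 to 65.4 ± 2.13 CPM (SD, n = 3), a log2 fold change of -1.02 (edgeR, adjusted p = 7.4e-05). Tradd, an adaptor of TNF receptors, fell by 0.71 (adjusted p = 0.0111).

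**Figure D5:**
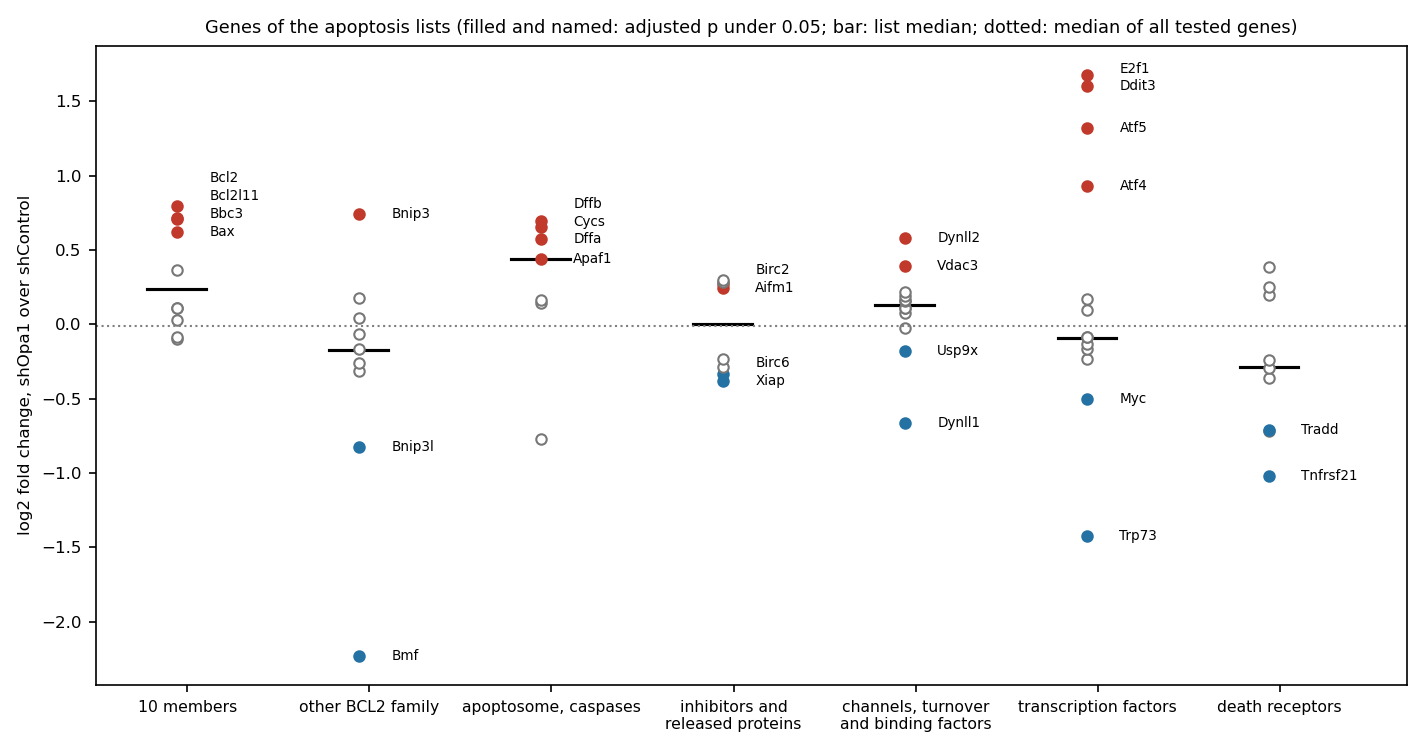
Log2 fold change of shOpa1 over shControl (vertical axis) for the 10 members and the tested genes of the 6 apoptosis lists, leaving out genes whose values are not reported. Filled and named points have an adjusted p under 0.05 in edgeR (red higher, blue lower), open points do not, bars are list medians and the dotted line is the median of all tested genes. The apoptosome and caspase list has no filled point below 0 and the death receptor list none above it.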

How the data were processed

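Per the file headers, the authors made the counts per gene with featureCounts 1.6.0 and Ensembl release 99 (GRCm38). That command sets no strand and no option for reads over several genes, so bases shared between genes can lose or mix reads. HISAT2, DESeq2 and mm10 are named without versions, per the submitters' processing notes. The authors' deposited comparison holds a log2 fold change and its error, a p-value, a score (fold change over error) and a normalised signal (counts over size factors) per gene. The last 2 were not used. Of the value columns, 0 lacked a sample.

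Groups and replicate numbers came from the labels. edgeR 4.0.16 (R 4.3.3) fitted shOpa1 against shControl on the counts of all 16562 genes that passed its default filter, with TMM scaling, the robust quasi-likelihood test and Benjamini-Hochberg adjustment at 0.05. CPM uses TMM-scaled totals, and CPM per kb divides by exon length. Standard errors given with edgeR values were worked back from its test, as the absolute log2 fold change over the square root of the F statistic. Pair differences used log2(CPM + 0.5). Deviations from group means correlated at 0.499, 0.515 and 0.649 between libraries of the same number. These were therefore taken as pairs for the pair differences and the replicate block. The main fit and the fits that left out 1 library did not use the pairs. Libraries of a group differed by more than sampling noise. The p-values set the group difference against the spread between libraries, which in the blocked fit is the spread left after the replicate number. On simulated counts for this comparison with 200 of 16562 genes changed 2-fold, edgeR recovered 66.5% and called 16 unchanged genes. The blocked fit called 21 unchanged genes and DESeq2 65. The simulated libraries had no pairs and far fewer changed genes than the 6442 called in the data. They therefore do not give the error rates of the fits above. DESeq2 1.42.0, limma-voom (limma 3.58.1), other scalings, filters and sample sets were alternatives. Symbols for 55144 of the identifiers came from a reference table. Exon overlaps came from the exon positions given with the counts (Ensembl release 99), on either strand.

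The members, the gene and marker lists and the tests were chosen with earlier results of these data known. Named were Opa1, the 10 members, up to 4 called genes with the smallest p per list (up to 2 genes where none was called), and for each called member the 2 genes with at least 50 mean counts and the nearest profile. Some genes that this rule would name are not reported here.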

Additional observations from a re-analysis of the deposited data

How the results depend on the processing

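Bax, Bcl2 and Bbc3 were called higher in all 17 alternatives and Bcl2l11 in 14. The count of members called higher was 4, became 7 with the replicate block over replicates 1 and 2 only (chosen after seeing the data, when Bcl2l2, Mcl1 and Pmaip1 also passed), and ran from 3 to 5 when 1 library was left out. No alternative called a member lower. Calls over all genes went from 6442 to 9851 with the replicate block and to 10421 with the block over replicates 1 and 2 only, and ran from 4589 to 6626 when 1 library was left out. List genes called higher went from 14 to 23 with library totals only, 22 with the block and 25 with the block over replicates 1 and 2 only. List genes called lower went from 10 to 17 under the last. Leaving out 1 library gave 11 to 16 higher and 9 to 10 lower. The block changed no call of a member. Library totals moved the median log2 fold change of all genes from -0.01 to 0.11 and the share of calls that were higher from 48.6% to 64.2%. This setting drops the TMM factors, which were 0.952 to 0.968 in shControl and 1.037 to 1.054 in shOpa1. Signs that turned belonged to members that were not called. Bak1 was -0.004, -0.0012 and -0.0048 without shControl replicate 1, shControl replicate 2 and shOpa1 replicate 2, and at most 0.08 when another library was left out. Bcl2l1 was 0.02 with library totals. Bid was 0.04 with library totals, 0.0008 with the block over replicates 1 and 2 only, 0.00026 in replicates 1 and 2 only and 0.01 without shControl replicate 3, down to -0.15 when another library was left out. Of 21 list genes named by the rule, 18 were called in every alternative and 0 changed sign. Why the TMM factors differed between the groups was not tested, nor was the cause of the other shifts. The fewest counts of a member in a library were 119, for Bcl2l11.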

Other observations

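Several genes of the BCL2 family, the caspases and the inhibitors of apoptosis had few or no counts in these cultures and fell below the low-count filter. The highest count in any library was 1 for Bcl2a1a, Bcl2a1b, Bcl2l10 and Bcl2l14, 2 for Bik, 4 for Casp8 and 5 for Birc3, and Bcl2a1d had 0 counts in all 6 libraries. Casp8, the initiator caspase through which death receptors act on BID, was thus barely counted where Casp9, the initiator of the mitochondrial route, had a mean of 40.7 CPM in shControl and 45.5 CPM in shOpa1.

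The short sequence GAAACTA, picked in earlier work on these same fold changes, was present in the longest annotated 3' UTR of 2 of the 10 members, Bcl2l11 and Pmaip1, with 1 copy each. It was present in 1334 of 13850 genes searched, or 9.63%. Among the named list genes, Bnip3l held 1 copy and Birc6 3 copies.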
